A study of Mus musculus with 8 samples.

Results

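The genes described here were the splicing factor genes of C3H10T1/2 cells, a mouse embryonic mesenchymal stem cell line of strain C3H. They were chosen by symbol and by no measured value, but with earlier results of these data known. The members were all *Srsf* genes with a number, *Tra2a* and *Tra2b* (together 13 SR and SR-like proteins), all *Hnrnp* genes (21), and the *Celf* (6), *Mbnl* (3), *Ptbp* (3) and *Rbfox* (3) genes. That gave 49 of the 18605 genes counted, with 353 RefSeq transcript models, of which 103 were curated coding models, 210 predicted coding models and 40 predicted non-coding models. The 4 groups had 2 RNA-seq libraries each. The group NC carried a non-target control and KD-Nap1l2 carried an shRNA against *Nap1l2*, a histone chaperone gene, both delivered by lentivirus and sampled without induction. NC-7d and KD-Nap1l2-7d were the same 2 lines after 7 days in osteogenic medium, which holds dexamethasone, ascorbic acid and β-glycerol phosphate. The labels do not say whether the paired libraries of a group came from separate cultures, so the p-values measure the spread between libraries, which may be technical, and no clone of the lines is named.

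Pre-mRNA splicing is guided by RNA-binding proteins that sit on exons and introns next to the splice sites. SR proteins have a domain rich in arginine and serine and mostly promote the use of an exon to which they bind. hnRNP proteins coat nascent transcripts and often, though not always, silence exons. The MBNL, CELF, PTBP and RBFOX families act on smaller sets of exons in a tissue-specific manner: MBNL and CELF proteins are known for opposing actions in developing muscle and heart, PTBP1 keeps neuronal exons out in other cells, and RBFOX proteins bind one short motif beside muscle and neuronal exons. Many of these genes also regulate their own transcripts by alternative splicing.

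The libraries held 17420300 to 19427400 estimated counts. *Nap1l2*, the gene targeted by the shRNA, had estimated counts of 3 and 3 in NC, 2 and 7 in KD-Nap1l2, 15 and 5 in NC-7d, and 7 and 13 in KD-Nap1l2-7d. The knockdown could therefore not be seen in this gene's RNA, and the libraries are called by their labels. All 8 mesenchymal markers looked at (for example *Col1a1*, *Vim* and *Prrx1*) were present in every library, with summed levels of 2913 to 7708 FPKM (fragments per kilobase of transcript, scaled to the size of the library). *Thy1* was scarce among them, at 0.59 to 5.79 FPKM. The 5 osteoblast markers summed to 2.67 to 13.3 FPKM and did not separate the days, and *Alpl*, *Sp7* and *Ibsp* stayed at or below 0.24 FPKM in every library. Of the 4 adipocyte markers, *Fabp4* had 7.69 to 25.1 FPKM before and 138 to 181 FPKM after induction, while *Adipoq*, *Plin1* and *Cidec* stayed under 1 FPKM. Markers of skeletal muscle, neurons, leukocytes, endothelium and epithelium summed to at most 9.03 FPKM in any library. In such bulk RNA, fewer cells of a type and less RNA per cell cannot be told apart.

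The members took 0.812% to 1.04% of the counts of a library. The median level over the 8 libraries was 100 FPKM or more for 12 members, from 1 to 100 FPKM for 29 and under 1 FPKM for 8. *Hnrnpa1* (273 FPKM), *Hnrnpk* (243), *Hnrnpa2b1* (236), *Hnrnpf* (197) and *Srsf5* (168) had the highest medians. The members under 1 FPKM were *Celf3*, *Celf4*, *Celf6*, *Mbnl3*, *Rbfox1*, *Rbfox3*, *Srsf12* and the pseudogene *Hnrnpa1l2-ps2*, and the CELF and RBFOX genes among them are best known from neurons. The median over the 44 members that passed the filter on low counts was 47.7 FPKM, against 9.8 FPKM over all 13470 genes that passed it. *Celf6*, *Hnrnpa1l2-ps2*, *Mbnl3*, *Rbfox3* and *Srsf12* did not pass and had at most 8.33 normalized counts in a library.

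**Figure D1:**
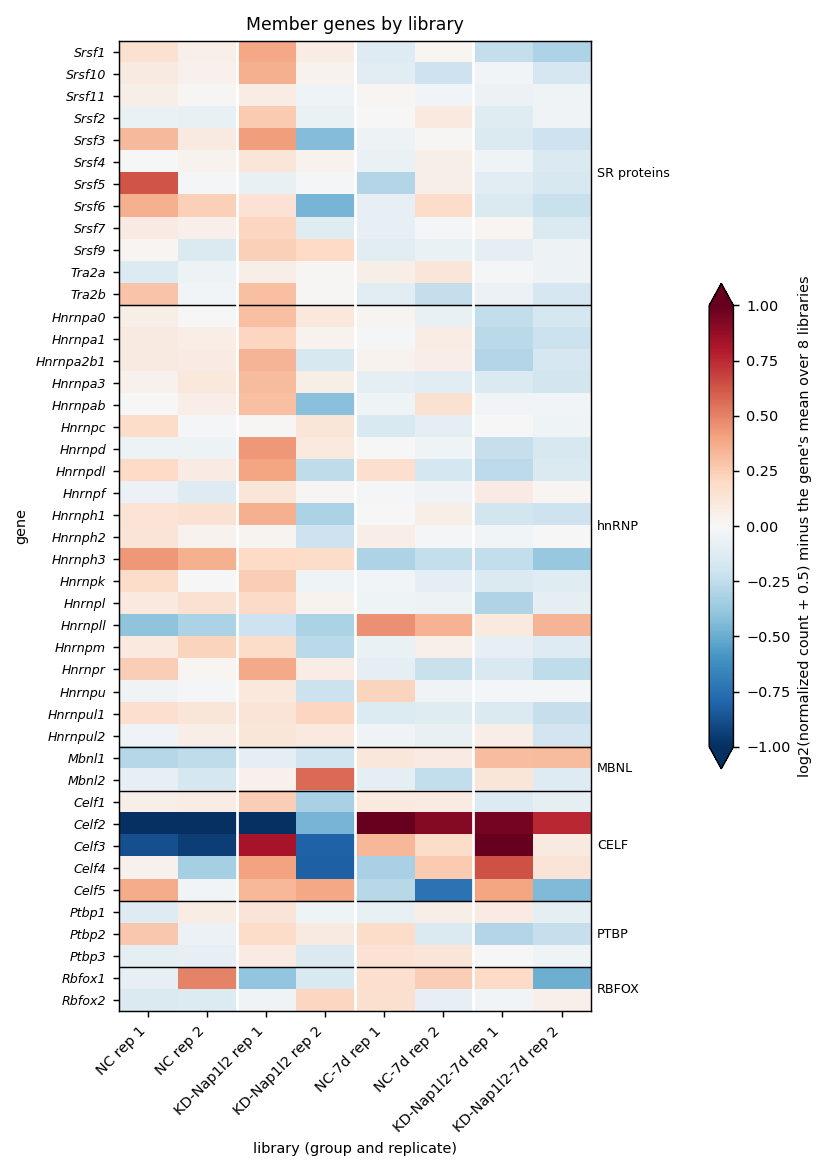
Each row is a member gene that passed the filter on low counts, grouped by family, and each column is a library. The colour gives the log2 of the normalized count plus 0.5, minus the mean of that gene over the 8 libraries. *Celf2* varies most and is higher in all 4 induced libraries, the scarce *Celf3*, *Celf4* and *Celf5* follow, and the column of KD-Nap1l2 replicate 1 lies above that of replicate 2 for 36 of 44 rows.

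The first comparison asked which splicing factors changed over 7 days of osteogenic induction. No group was kept for 7 days without osteogenic medium, so the medium and the time in culture cannot be told apart. Over both lines, *Celf2*, *Hnrnpll* and *Mbnl1* rose and *Hnrnph3*, *Hnrnpr*, *Hnrnpul1* and *Srsf1* fell. *Celf2* was 3.78-fold higher after induction, *Hnrnpll* 1.54-fold and *Mbnl1* 1.33-fold, and *Hnrnph3* had the largest fall, to 0.666 of its level without induction. These were 7 of the 44 members tested (15.9%) at an adjusted p under 0.05 in the quasi-likelihood test of edgeR. Of all genes tested 25.5% were called, so the share of members was not above the background. Among all genes, 12.8% were called higher and 12.7% lower. In NC alone, 3 members were called against a background of 8.22%, and in KD-Nap1l2 alone 4 members against 14.2%. Over both lines, *Celf2*, *Hnrnpll* and *Hnrnph3* were called whichever library was left out, *Mbnl1* was lost without NC replicate 1, *Hnrnpul1* was lost without any library but KD-Nap1l2 replicate 1, and *Hnrnpr* and *Srsf1* were lost without any library but KD-Nap1l2 replicate 2. Within a single line only *Celf2* was called whichever library was left out. The calls of *Hnrnpll* and *Hnrnph3* in NC were lost without NC replicate 1, NC replicate 2 or NC-7d replicate 1, and in KD-Nap1l2 the other 3 calls were each lost without several libraries.

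The median of the members lay a little below that of all genes. Their median log2 fold change was -0.15 over both lines, -0.05 in NC and -0.17 in KD-Nap1l2, where the median of all genes tested was between -0.01 and 0.00. In KD-Nap1l2, 35 of 44 members had a value below 0 (79.5%, against 50.6% of all genes), and in NC 29 of 44 had (65.9%, against 50.4%). The values over both lines and in KD-Nap1l2 depended on KD-Nap1l2 replicate 1. Without it the median of the members was -0.03 over both lines and -0.06 in KD-Nap1l2, where 19 of 44 members then lay above 0 in place of 9. Without KD-Nap1l2 replicate 2 the median in KD-Nap1l2 was -0.30. Leaving out NC replicate 2 or NC-7d replicate 1 brought the median in NC to -0.08 in each case. All 4 induced libraries lay above all 4 uninduced ones for 3 members, the 3 that rose, and below them for 8. The shares over all genes were 14.1% and 12.3%, and those of the members 6.82% and 18.2%. Of the 24 proliferation genes looked at, 12 fell and none rose over both lines (50%, where 12.7% of all genes were called lower). Their median was -0.31 in NC and -0.96 in KD-Nap1l2. The NC value averages libraries that stood far apart, since the median of these genes, relative to each gene's mean over the 8 libraries, was -0.74 in NC-7d replicate 1 and 0.27 in replicate 2, against 0.07 and 0.30 in NC. Their part in the values of the members was not tested.

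**Figure D2:**
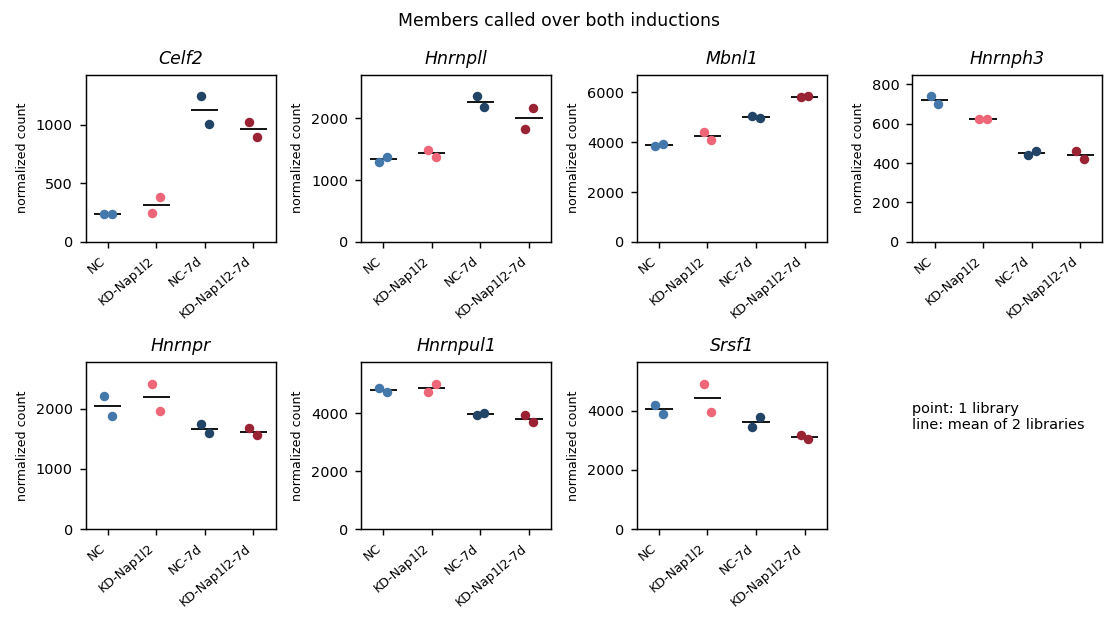
The panels show the normalized counts of the 7 members called over both inductions. Each point is a library, each line the mean of the 2 libraries of a group, and every axis starts at 0. *Celf2*, *Hnrnpll* and *Mbnl1* are higher and *Hnrnph3*, *Hnrnpr*, *Hnrnpul1* and *Srsf1* lower in all 4 induced libraries than in the 4 uninduced ones.

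*Celf2* (chr2:6539694-7396341, GRCm38.p6) encodes an RNA-binding protein of the CELF family that regulates exon use in the nucleus and RNA stability and translation in the cytoplasm. Its normalized counts (scaled to a common library size) were 240.3 and 237 in NC, 247 and 384 in KD-Nap1l2, 1242 and 1002 in NC-7d, and 1027 and 895 in KD-Nap1l2-7d. The 4 induced libraries lay well apart from the 4 uninduced ones, and within the uninduced ones KD-Nap1l2 replicate 2 was the highest. The log2 fold change was 2.23 ± 0.22 (SE) in NC (adjusted p = 0.00204), 1.61 ± 0.22 in KD-Nap1l2 (adjusted p = 0.00451), and 1.92 ± 0.16 over both (adjusted p = 0.000264; edgeR). The difference between the lines was -0.62 ± 0.30 and did not pass the test (adjusted p = 0.721). *Celf2* was called under each of the 15 other settings tried for the induction over both lines.

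*Celf1*, the other broadly expressed gene of this family, did not follow. It had normalized counts of 3019.9 and 3064 in NC, 3442 and 2318 in KD-Nap1l2, 3108 and 3071 in NC-7d, and 2646 and 2737 in KD-Nap1l2-7d. The highest and the lowest value were both those of KD-Nap1l2 libraries. Its log2 fold change over both inductions was -0.04 ± 0.13 (adjusted p = 0.852). *Celf5* was counted at a low level, 131 and 99.1 in NC, 127 and 132 in KD-Nap1l2, 83.5 and 60.4 in NC-7d, and 133 and 74.1 in KD-Nap1l2-7d. The NC-7d libraries lay below the NC ones, with a log2 fold change of -0.68 ± 0.33 (adjusted p = 0.253). The highest library of *Celf5* and one of its lowest were both KD-Nap1l2-7d. *Celf3* and *Celf4* reached at most 14 and 15 normalized counts, and neither passed the test.

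Muscleblind proteins drive the change from fetal to adult exon use in muscle and other tissues. *Mbnl1* had normalized counts of 3846 and 3929 in NC, 4413 and 4088 in KD-Nap1l2, 5072 and 4964 in NC-7d, and 5805 and 5845 in KD-Nap1l2-7d. All 4 induced libraries lay above all 4 uninduced ones, and the KD-Nap1l2-7d libraries were the highest of all. The log2 fold change was 0.41 ± 0.08 over both lines (adjusted p = 0.0105) and 0.45 ± 0.12 in KD-Nap1l2 (adjusted p = 0.04), while NC at 0.37 ± 0.12 missed the threshold (adjusted p = 0.1). *Mbnl2*, its closest relative, had counts of 3709 and 3489.7 in NC, 4045 and 5830.0 in KD-Nap1l2, 3684 and 3313 in NC-7d, and 4279.7 and 3588 in KD-Nap1l2-7d. KD-Nap1l2 replicate 2 stood apart from the other 7 libraries, and the log2 fold change over both inductions was -0.18 ± 0.13 (adjusted p = 0.345).

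The hnRNP genes held the other rise and 3 of the 4 falls. *Hnrnpll* (chr17:80029487-80062268) encodes a relative of hnRNP L known for exon skipping in *Ptprc* during lymphocyte activation. It had normalized counts of 1301 and 1378 in NC, 1486 and 1381 in KD-Nap1l2, 2356 and 2180.3 in NC-7d, and 1835 and 2169 in KD-Nap1l2-7d. Every induced library lay above every uninduced one. The log2 fold change was 0.76 ± 0.13 in NC, 0.48 ± 0.13 in KD-Nap1l2 and 0.62 ± 0.09 over both (edgeR adjusted p = 0.0135, 0.0441 and 0.00293). *Ptprc*, a leukocyte gene, had at most 4 counts in a library. *Hnrnpl* itself had a log2 fold change of -0.24 ± 0.09 over both lines (adjusted p = 0.094).

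*Hnrnph3*, a small member of the hnRNP H group that binds runs of guanine, had normalized counts of 739 and 698 in NC, 626 and 621 in KD-Nap1l2, 439.9 and 463 in NC-7d, and 461 and 419 in KD-Nap1l2-7d. The 4 induced libraries were close together and below all uninduced ones. It fell by 0.67 on the log2 scale in NC (SE 0.12, adjusted p = 0.0169), by 0.50 in KD-Nap1l2 (SE 0.12, adjusted p = 0.032), and by 0.59 over both (SE 0.09, adjusted p = 0.00284). Its larger relative *Hnrnph1* had counts of 4771 and 4818 in NC, 5547 and 3487 in KD-Nap1l2, 4354 and 4527 in NC-7d, and 3829 and 3751 in KD-Nap1l2-7d. The spread between the KD-Nap1l2 libraries was wider than any difference between group means of *Hnrnph1*, whose log2 fold change over both inductions was -0.18 ± 0.14 (adjusted p = 0.382).

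*Hnrnpr* and *Hnrnpul1*, a relative of hnRNP Q and a relative of hnRNP U, were called over both lines but in neither line alone. *Hnrnpr* had counts of 2206 and 1883 in NC, 2417 and 1962 in KD-Nap1l2, 1740.5 and 1594 in NC-7d, and 1673 and 1559 in KD-Nap1l2-7d, and it fell, with -0.37 ± 0.10 on the log2 scale (adjusted p = 0.037). *Hnrnpul1* had counts of 4853 and 4709 in NC, 4741 and 5012 in KD-Nap1l2, 3936 and 3989.5 in NC-7d, and 3923 and 3685 in KD-Nap1l2-7d, and it fell, with -0.31 ± 0.08 on the log2 scale (adjusted p = 0.0283). For both genes the highest induced library lay below the lowest uninduced one.

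The abundant core of the family did not pass the test. *Hnrnpa1*, which antagonizes SR proteins at exons and has many processed copies in the genome that can share its reads, had counts of 8975 and 8828 in NC, 9751 and 8629 in KD-Nap1l2, 8354 and 8875 in NC-7d, and 6991 and 7259.6 in KD-Nap1l2-7d. The KD-Nap1l2-7d libraries were the lowest, and the log2 fold change of induction in KD-Nap1l2 was -0.37 ± 0.13 (adjusted p = 0.0972), against -0.05 ± 0.13 in NC. *Hnrnpa2b1*, which also carries RNA along microtubules, had counts of 11840.5 and 11779.7 in NC, 14105 and 9977 in KD-Nap1l2, 11417 and 11676 in NC-7d, and 9088 and 9889 in KD-Nap1l2-7d. The NC and NC-7d libraries were close together, and the libraries of the other 2 groups lay on both sides of them, with a log2 fold change of -0.19 ± 0.13 over both lines (adjusted p = 0.304).

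*Hnrnpd* (AUF1), which binds AU-rich elements and directs RNA decay, had counts of 1855 and 1852 in NC, 2586 and 2054 in KD-Nap1l2, 1921 and 1866 in NC-7d, and 1640.1 and 1717 in KD-Nap1l2-7d. The NC and NC-7d libraries nearly coincided, while KD-Nap1l2 lay above and KD-Nap1l2-7d below them. The log2 fold change of induction in KD-Nap1l2 was -0.47 ± 0.14 (adjusted p = 0.0571), in NC 0.03 ± 0.14 (adjusted p = 0.916), and the difference between them -0.50 ± 0.19 (adjusted p = 0.68). *Hnrnpdl*, a paralog on the same chromosome, had counts of 2547 and 2346 in NC, 2922 and 1855 in KD-Nap1l2, 2489 and 1958 in NC-7d, and 1849 and 2001 in KD-Nap1l2-7d, and its log2 fold change was -0.22 ± 0.15 over both lines (adjusted p = 0.317). *Hnrnpa0*, an intronless relative of *Hnrnpa1*, had counts of 2605 and 2510.0 in NC, 3081 and 2684 in KD-Nap1l2, 2544 and 2378 in NC-7d, and 2113 and 2209 in KD-Nap1l2-7d. It stood highest in KD-Nap1l2 and lowest in KD-Nap1l2-7d, and its inductions differed between the lines by -0.36 ± 0.17 (adjusted p = 0.721). *Hnrnpc*, which binds runs of uridine, had counts of 5649 and 4903 in NC, 5021 and 5422 in KD-Nap1l2, 4474 and 4649 in NC-7d, and 4975 and 4834 in KD-Nap1l2-7d, and its log2 fold change was -0.15 ± 0.09 (adjusted p = 0.261). *Hnrnpf*, which like *Hnrnph1* binds runs of guanine, had counts of 7797 and 7445 in NC, 8830.5 and 8199.7 in KD-Nap1l2, 8044 and 7903 in NC-7d, and 8574 and 8242 in KD-Nap1l2-7d, and its log2 fold change was 0.02 ± 0.09 (adjusted p = 0.866). The induced and uninduced libraries of both genes overlapped. The hnRNP genes not named so far (*Hnrnpa3*, *Hnrnpab*, *Hnrnph2*, *Hnrnpk*, *Hnrnpm*, *Hnrnpu* and *Hnrnpul2*) had log2 fold changes from -0.26 to 0.07, and none was called.

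Of the 12 SR and SR-like genes tested, 11 had a log2 fold change below 0 over both lines (91.7%, against 51.0% of all genes). Of the 12 *Srsf1* alone passed the test (8.33%, against 25.5% of all genes). For the members as a whole the shift over both lines depended on KD-Nap1l2 replicate 1, with a median of -0.15, and -0.03 without that library. *Srsf1*, the prototype of the family, had normalized counts of 4185 and 3894 in NC, 4909.9 and 3959 in KD-Nap1l2, 3443 and 3802 in NC-7d, and 3181 and 3030.4 in KD-Nap1l2-7d. All induced libraries lay below all uninduced ones, although the lowest of these, NC replicate 2, lay close to NC-7d replicate 2. The log2 fold change was -0.34 ± 0.10 over both (adjusted p = 0.0453), -0.51 ± 0.14 in KD-Nap1l2 (adjusted p = 0.0518) and -0.16 ± 0.14 in NC (adjusted p = 0.549). It was called under 5 of 16 settings, each library left out being a setting.

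*Srsf2*, which binds exonic enhancers and acts in transcription elongation as well, had counts of 3985 and 3963 in NC, 4993 and 3984 in KD-Nap1l2, 4195 and 4469 in NC-7d, and 3846 and 4074 in KD-Nap1l2-7d, and its log2 fold change was -0.03 ± 0.10 (adjusted p = 0.859). *Srsf3*, the smallest SR protein, had counts of 3364 and 2856 in NC, 3589 and 1989 in KD-Nap1l2, 2590.4 and 2704 in NC-7d, and 2431 and 2328 in KD-Nap1l2-7d. Its highest and its lowest library were both KD-Nap1l2 libraries, and its log2 fold change was -0.23 ± 0.17 (adjusted p = 0.364). *Srsf7*, which like *Srsf3* also takes part in RNA export, had counts of 1865 and 1828 in NC, 2052 and 1621 in KD-Nap1l2, 1669 and 1742 in NC-7d, and 1791 and 1598 in KD-Nap1l2-7d. Over both lines its induced and uninduced libraries overlapped (log2 fold change -0.12 ± 0.10, adjusted p = 0.429), although both NC-7d libraries lay below both NC ones. *Tra2a* had counts of 1327 and 1409 in NC, 1519.9 and 1477 in KD-Nap1l2, 1526 and 1593 in NC-7d, and 1453 and 1413 in KD-Nap1l2-7d. *Tra2b*, a partner of SR proteins on purine-rich enhancers, had counts of 3851 and 3099.9 in NC, 3882 and 3180.4 in KD-Nap1l2, 2933 and 2681 in NC-7d, and 3029.6 and 2818 in KD-Nap1l2-7d. The 4 induced libraries of *Tra2b* were its 4 lowest, with a log2 fold change of -0.29 ± 0.11 (adjusted p = 0.0952), and those of *Tra2a* were not separated (0.06 ± 0.08, adjusted p = 0.577). None of the remaining SR genes *Srsf4*, *Srsf9*, *Srsf10* and *Srsf11* was called, with log2 fold changes from -0.26 to -0.05.

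No PTBP or RBFOX gene passed the test. *Ptbp1*, the repressor of neuronal exons, had counts of 5691 and 6525 in NC, 6771 and 6017 in KD-Nap1l2, 5885 and 6449 in NC-7d, and 6587 and 5822 in KD-Nap1l2-7d, and its log2 fold change was -0.01 ± 0.10 (adjusted p = 0.93). *Ptbp2*, its neuronal relative, was counted at 757 and 604 in NC, 715 and 667 in KD-Nap1l2, 713 and 569.5 in NC-7d, and 513 and 535 in KD-Nap1l2-7d, with KD-Nap1l2-7d lowest (log2 fold change -0.40 ± 0.16 in KD-Nap1l2, adjusted p = 0.138). *Ptbp3* had a log2 fold change of 0.11 ± 0.09. *Rbfox2*, the RBFOX gene of many tissues outside the brain, had counts of 6018 and 6045 in NC, 6491 and 7719 in KD-Nap1l2, 7417 and 6266 in NC-7d, and 6511 and 6870.1 in KD-Nap1l2-7d. Over both lines its induced and uninduced libraries overlapped, and the log2 fold change was 0.05 ± 0.10 (adjusted p = 0.766). Both NC-7d libraries and both KD-Nap1l2 libraries lay above both NC ones. *Rbfox1* reached at most 15 counts in a library.

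**Figure D3:**
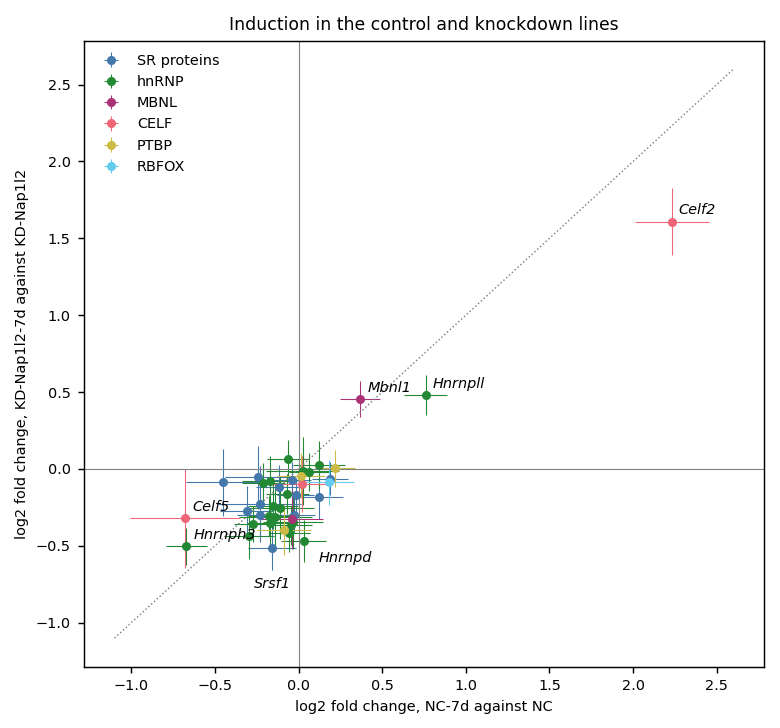
Each point is a member whose mean was 50 normalized counts or more, coloured by family. The horizontal axis gives the log2 fold change from NC to NC-7d and the vertical axis that from KD-Nap1l2 to KD-Nap1l2-7d, with bars of 1 SE, and the dotted line marks equal values. *Celf2*, *Hnrnpll* and *Mbnl1* lie in the upper right and *Hnrnph3* in the lower left, and most other members lie near 0 in NC and between 0 and -0.5 in KD-Nap1l2.

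The second comparison asked what the shRNA against *Nap1l2* changed. No member was called in KD-Nap1l2 against NC, where 0.0817% of all genes were, nor in KD-Nap1l2-7d against NC-7d, where 0% of all genes were, nor in the difference between the inductions (0% of all genes). The number of genes called in KD-Nap1l2 against NC, 11 in all, was 562 without KD-Nap1l2 replicate 1, 152 and 151 without NC-7d replicate 1 or 2, and 0 to 3 without another library, and no member was among them in any of these fits. At an unadjusted p under 0.05, edgeR gave 3 members without induction (*Hnrnpd*, *Mbnl2* and *Srsf9*), 0 after it and 1 in the difference (*Hnrnpd*). DESeq2 also called no member in these comparisons and gave 2 (*Mbnl2* and *Srsf6*), 0 and 1 (*Hnrnpd*) at that level. Among all 13470 genes edgeR gave 1852, 1057 and 948 at that level, a larger share than among the 44 members in each comparison. The medians of the members were 0.05 without and -0.08 with induction, and those of the 24 proliferation genes 0.28 and -0.30, whose part in the values of the members was not tested.

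The 2 KD-Nap1l2 libraries differed from each other in most members. Replicate 2 lay below replicate 1 for 36 of the 44 members, by a median of 0.21 on the log2 scale, where 52.3% of all genes were lower. In the other groups 24 to 28 members were lower in replicate 2. Without replicate 2 the median of the members in KD-Nap1l2 against NC was 0.15, and without replicate 1 it was -0.04. The calls over both inductions changed as well. Without KD-Nap1l2 replicate 2 there were 11, with *Hnrnpa3*, *Hnrnpd*, *Hnrnph1*, *Srsf3* and *Srsf10* added and *Hnrnpul1* lost, and without replicate 1 there were 5.

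Among members averaging 50 or more counts and with no overlap between KD-Nap1l2 and NC, *Mbnl2* (0.46 ± 0.19, adjusted p = 0.348), *Celf2* (0.40 ± 0.22, adjusted p = 0.475) and *Hnrnpd* (0.32 ± 0.14, adjusted p = 0.348) had the highest log2 fold changes. *Srsf6* (-0.43 ± 0.20, adjusted p = 0.403), *Srsf5* (-0.39 ± 0.22, adjusted p = 0.481) and *Hnrnph3* (-0.20 ± 0.12, adjusted p = 0.505) had the lowest. The scarce *Celf3* (1.25 ± 0.80) and *Rbfox1* (-0.53 ± 0.48) lay outside these and did not overlap either. Without overlap, 13 members were higher (29.5%, against 22.0% of all genes) and 5 lower (11.4%, against 21.2%). *Srsf5*, an SR gene known to respond to insulin and to growth signals, had counts of 7640.5 and 4866 in NC, 4673 and 4854 in KD-Nap1l2, 4020.4 and 5124 in NC-7d, and 4573 and 4406 in KD-Nap1l2-7d. NC replicate 1 of *Srsf5* stood far above all other libraries, and NC replicate 2 lay close to the KD-Nap1l2 libraries. *Srsf6*, a regulator of tau exons, had counts of 3545 and 3268 in NC, 3060.3 and 2004 in KD-Nap1l2, 2621 and 3149.6 in NC-7d, and 2502 and 2372 in KD-Nap1l2-7d. KD-Nap1l2 replicate 2 was its lowest library. After induction only 3 members were higher without overlap (6.82%, against 21.0% of all genes). These were *Mbnl1* (0.22 ± 0.12), *Hnrnpc* (0.10 ± 0.13) and *Hnrnpf* (0.08 ± 0.12). Another 20 were lower without overlap (45.5%, against 21.0% of all genes). The lowest of them were *Ptbp2* (-0.29 ± 0.16), *Hnrnpa2b1* (-0.28 ± 0.18) and *Hnrnpa1* (-0.27 ± 0.13). The genes named here after induction all had an adjusted p of 0.671 or more in edgeR's test.

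The transcript table asked a further question, how the reads of each member were divided between its transcripts. A share is the percentage of a gene's estimated counts given to a transcript. Among the 41 members with at least 50 counts in every library, the leading transcript held a median of 60.4% of the gene, and it was a curated model in 31, a predicted coding model in 8 and a predicted non-coding model in 2. Those 2 were *Hnrnpa2b1*, where XR_868868.2 held 77.7% and 79.1% in NC, 79.6% and 82.2% in KD-Nap1l2, 75.2% and 79.4% in NC-7d, and 74.8% and 77.4% in KD-Nap1l2-7d, and *Hnrnpa3*, where XR_866271.2 held 69.9% to 75.1%. By this estimate most reads of both genes went to models with no coding sequence, in every library. *Mbnl1* and *Rbfox2*, with 38 and 31 models, had no transcript above 11.9% and 15.9% in any library. The share of the leading transcript had a median SD between replicates of 3.39 percentage points. RSEM divides reads between overlapping models by estimate, and that error is not in the counting error of a share.

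No member transcript changed its share at an adjusted p under 0.05 (edgeR's diffSpliceDGE, 248 transcripts of 38 members). Without NC replicate 1 the count was 1 in KD-Nap1l2 against NC (*Tra2b* XM_006521879.3) and 2 over both inductions (with *Hnrnph2* NM_001313717.1). Calls were as rare over all transcripts, with 0.0206% of all transcripts called in KD-Nap1l2 against NC, 0.00294% after induction, 0.0264% for induction in NC, 0.00587% in KD-Nap1l2 and 0.047% over both. At an unadjusted p under 0.05 there were 14, 10, 17, 15 and 27 member transcripts in these comparisons, and limma's diffSplice also called none, with 17, 21, 27, 23 and 24. Over all 34049 transcripts edgeR gave 1710, 1774, 1784, 1886 and 2327 at that level, and limma 2782, 2718, 2940, 3144 and 3595. Over both inductions the share among the 248 member transcripts was thus above that of all transcripts by edgeR and below it by limma. The power was low in data simulated for the induction over both lines, where the 2 leading transcripts of a gene were first set to equal levels. There edgeR found 2 of 100 genes whose 2 leading transcripts traded 4-fold and 41 of 100 that traded 19-fold, and limma 30 and 54. False calls numbered 22 for edgeR and 11 for limma. Unequal starting levels were not simulated. A 4-fold switch was mostly missed in the simulation, so the lack of calls does not exclude one among the members. In genes with several models and at least 50 counts in every library, 140 member transcripts had a mean share of at least 5%. Of these, 6 had shares that did not overlap between the 4 induced and the 4 uninduced libraries (4.29%), and the share over all transcripts was 4.41%.

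The member transcripts with the largest non-overlapping differences over both inductions belonged to *Hnrnpd*, *Celf2* and *Hnrnpll*. *Hnrnpll* XR_001782118.1, a predicted non-coding model, held 7.52% and 12% in NC, 7.55% and 7.76% in KD-Nap1l2, 15.9% and 18.3% in NC-7d, and 18.9% and 21.7% in KD-Nap1l2-7d, and the rest went to the only other model, the curated NM_144802.4. Its mean share was 8.71% before and 18.7% after induction, a difference of 9.98 percentage points with an SD within groups of 2.06 (adjusted p = 0.963). Its 4 induced libraries lay above its 4 uninduced ones. *Celf2* XM_017315443.1, a predicted coding model among 23, held 0% and 0% in NC, 1.67% and 1.05% in KD-Nap1l2, 6.85% and 12.6% in NC-7d, and 14.3% and 9.94% in KD-Nap1l2-7d. It was near 0 without induction and differed by 10.2 percentage points (SD 2.56, adjusted p = 0.402). The gene had only 244 estimated counts in its lowest library.

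*Hnrnpd* is read through a pair of alternative coding exons, whose combinations give its 4 curated models. NM_001077265.2 has both exons, NM_007516.3 only the 57-base exon, NM_001077266.2 only the 147-base exon and NM_001077267.2 neither. Both exons are printed because the shares below turn on them. The sequences are those of the GENCODE vM21 transcripts matched to the RefSeq models (GRCm38), read 5′ to 3′ in transcript direction, with the exon in capitals and 15 bases of the neighbouring exons in lower case.
*Hnrnpd* 57-base exon (chr5:99976534-99976590, minus strand): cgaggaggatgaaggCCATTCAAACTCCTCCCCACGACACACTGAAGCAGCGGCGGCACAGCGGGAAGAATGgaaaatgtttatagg
*Hnrnpd* 147-base exon (chr5:99963731-99963877, minus strand): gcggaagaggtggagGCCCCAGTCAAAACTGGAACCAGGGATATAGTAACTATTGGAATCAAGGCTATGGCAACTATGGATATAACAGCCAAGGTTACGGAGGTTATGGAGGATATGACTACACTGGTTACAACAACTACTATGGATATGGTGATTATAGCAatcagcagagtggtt

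NM_001077266.2, with the 147-base and without the 57-base exon, held these shares of *Hnrnpd*: 23.4% and 28.6% in NC, 24.6% and 27.6% in KD-Nap1l2, 10.3% and 9.11% in NC-7d, and 2.12% and 14.6% in KD-Nap1l2-7d. Every induced library lay below every uninduced one, with means of 26% and 9.03% (difference -17 percentage points, SD 4.9), and the test gave an unadjusted p of 0.0301 and an adjusted p of 0.616. NM_001077265.2, with both exons, held 31.2% and 29.3% in NC, 38.1% and 29.7% in KD-Nap1l2, 39% and 41.2% in NC-7d, and 54.2% and 33.5% in KD-Nap1l2-7d. NM_001077267.2, with neither, held 4.74% and 1.69% in NC, 0% and 1.12% in KD-Nap1l2, 21.8% and 14.3% in NC-7d, and 16.9% and 0% in KD-Nap1l2-7d. Its highest library and one at 0 were both induced. NM_007516.3, with the 57-base exon, held 23.5% and 21% in NC, 19.1% and 19.1% in KD-Nap1l2, 10.9% and 16.7% in NC-7d, and 6.4% and 26.5% in KD-Nap1l2-7d.

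**Figure D4:**
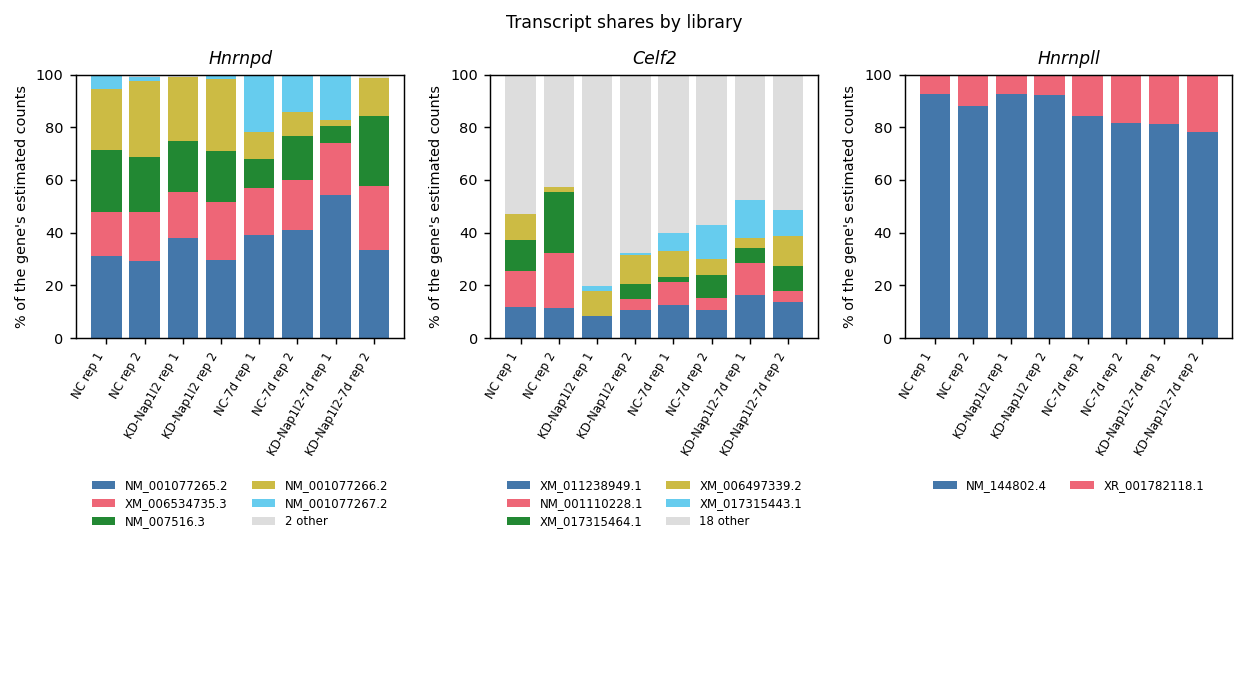
Stacked bars show, for each library, the percentage of the estimated counts of *Hnrnpd*, *Celf2* and *Hnrnpll* given to each transcript model, with the models not listed in grey. The yellow part of *Hnrnpd* (NM_001077266.2) is smaller, and the light blue part of *Celf2* (XM_017315443.1) and the red part of *Hnrnpll* (XR_001782118.1) are larger, in the 4 induced libraries than in the 4 uninduced ones.

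To follow an exon and not a model, the counts of the curated models with and without it were summed. Of the 103 curated models, 102 were matched to GENCODE. They showed 15 alternative coding exons, and for 6 of them the models that show the exon held at least 50% of the gene's counts. These 6 exons were chosen for that coverage after the data had been seen. The 57-base exon of *Hnrnpd* was on models holding the following percentages of the curated counts: 66% and 62.5% in NC, 70% and 62.9% in KD-Nap1l2, 60.8% and 71.2% in NC-7d, and 76.2% and 80.5% in KD-Nap1l2-7d. For the 147-base exon they were 65.9% and 71.9% in NC, 76.6% and 73.9% in KD-Nap1l2, 60.1% and 61.8% in NC-7d, and 70.8% and 64.5% in KD-Nap1l2-7d. The mean of the 147-base exon was 72.1% before and 64.3% after induction, a difference of -7.8 percentage points (two-sided exact permutation test over the 70 ways of choosing 4 of 8 libraries, p = 0.0571, 0.343 after Benjamini-Hochberg adjustment over the 6 exons, where the smallest possible p was 0.0286). The 57-base exon differed by 6.82 percentage points (exact p = 0.229, adjusted 0.457). Neither difference passed the test, which pooled the lines, and for both exons the induced and uninduced libraries of both lines together overlapped. Within each line, both induced libraries lay below both uninduced ones for the 147-base exon. For the 57-base exon the induced libraries lay above the uninduced ones in KD-Nap1l2 and overlapped with them in NC. Exon inclusion within a line was not tested.

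The polypyrimidine tract binding proteins carry such exons too. The 78-base exon of *Ptbp1* lies in the linker between the second and the third RNA-binding domain and is known to affect the strength of repression. It is shown, with the 34-base exon of *Ptbp3*, because the curated models that show these exons hold most reads of their genes.
*Ptbp1* 78-base exon (chr10:79860117-79860194, plus strand): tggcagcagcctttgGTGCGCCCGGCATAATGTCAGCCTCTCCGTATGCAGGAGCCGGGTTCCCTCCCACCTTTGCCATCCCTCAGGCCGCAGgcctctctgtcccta
*Ptbp3* 34-base exon (chr4:59546149-59546182, minus strand): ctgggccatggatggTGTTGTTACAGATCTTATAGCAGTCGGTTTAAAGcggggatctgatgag

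The *Ptbp1* exon had an inclusion of 54.7% and 67% in NC, 63.1% and 70.9% in KD-Nap1l2, 72.8% and 66.7% in NC-7d, and 69.7% and 70.8% in KD-Nap1l2-7d. NC replicate 1 was the lowest, and the groups overlapped (difference 6.09 percentage points, exact permutation p = 0.2, adjusted 0.457). The *Ptbp3* exon, whose length is not a multiple of 3, had an inclusion of 18.6% and 15.8% in NC, 0.00454% and 8.43% in KD-Nap1l2, 7.83% and 16.3% in NC-7d, and 19% and 18% in KD-Nap1l2-7d. KD-Nap1l2 replicate 1 was near 0, KD-Nap1l2-7d and NC had similar values, and the induction difference did not pass (exact permutation p = 0.429, adjusted 0.514). In *Hnrnpab* a 141-base exon (chr11:51601750-51601890, minus strand) was included in 55.1% to 67.8% of the counts, with no separation of the groups (exact permutation p = 0.686, adjusted 0.686).

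*Mbnl1* and *Mbnl2* each have an alternative exon of 54 bases that is known to favour a nuclear location of the protein. The exons are printed together because they are alike in sequence and, on the curated models alone, unlike in estimated inclusion. They are identical at 46 of 54 positions (85.2%).
*Mbnl1* 54-base exon (chr3:60614683-60614736, plus strand): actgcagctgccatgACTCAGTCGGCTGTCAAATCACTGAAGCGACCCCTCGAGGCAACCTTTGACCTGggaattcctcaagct
*Mbnl2* 54-base exon (chr14:120395712-120395765, plus strand): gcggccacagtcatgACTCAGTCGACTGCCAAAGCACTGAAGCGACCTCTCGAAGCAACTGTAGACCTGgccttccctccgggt

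The *Mbnl1* exon had an inclusion of 28.2% and 36.8% in NC, 49.1% and 31.8% in KD-Nap1l2, 36.6% and 40.3% in NC-7d, and 39.1% and 42.6% in KD-Nap1l2-7d. The curated models that show it held 31.7% of the gene. The *Mbnl2* exon was included in 0% to 3.79% of such counts, on models that held 54.9% of the gene. The lowest library of *Mbnl1* lay far above the highest of *Mbnl2*, and induction did not separate the groups of either gene (exact permutation p = 0.429 for *Mbnl2*, adjusted 0.514). The predicted models, which hold the remaining reads, were not used here.

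**Figure D5:**
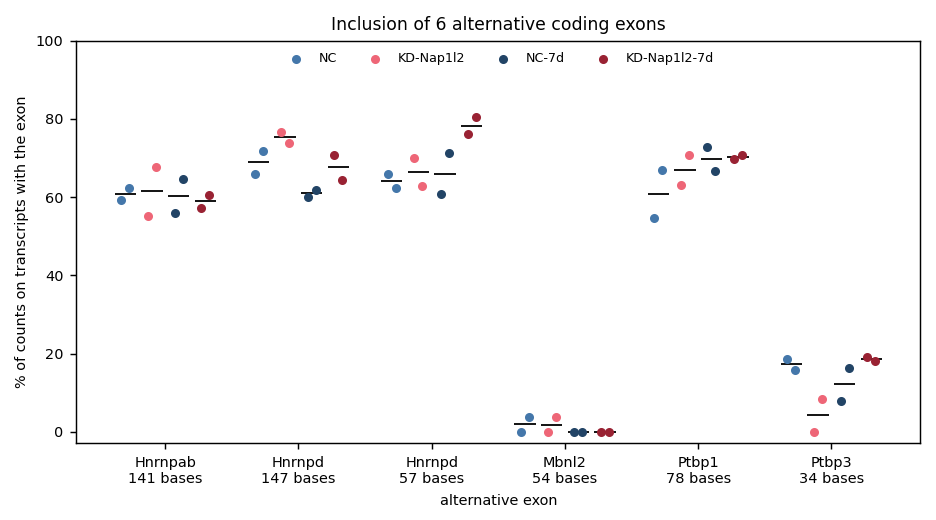
Points give, for each library, the percentage of the counts on curated models showing the exon that fell on models including it, and short lines the mean of the 2 libraries of a group. The exon of *Mbnl2* lies near 0 and that of *Ptbp3* below 20%, and the other 4 exons lie between 54.7% and 80.5% with overlap between induced and uninduced libraries.

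Within single comparisons, the largest differences without overlap in share were mostly found in transcripts whose replicates lay far apart. Lack of overlap was common with 2 libraries against 2. Among transcripts with a mean share of at least 5%, it held for 31.6% to 35.2% of all and 30% to 38.6% of the members' 140. *Tra2b* XM_006521879.3 held 15% and 0% in NC, 4.89% and 8.94% in KD-Nap1l2, 3.26% and 5.36% in NC-7d, and 23.9% and 15.2% in KD-Nap1l2-7d, and the NC libraries alone were nearly as far apart as KD-Nap1l2-7d and NC-7d. *Tra2a* XM_011241102.1 held 25.3% and 34.7% in NC, 30.7% and 38.4% in KD-Nap1l2, 48.4% and 31.9% in NC-7d, and 27.8% and 18.3% in KD-Nap1l2-7d. *Srsf2* had 2 models. Of these NM_011358.2 held 64.6% and 51.9% in NC, 58.8% and 37.8% in KD-Nap1l2, 31.1% and 51.5% in NC-7d, and 43.9% and 38.5% in KD-Nap1l2-7d. The higher NC-7d library lay just below the lower NC one. *Ptbp2* NM_001310711.1 held 15.9% and 33% in NC, 37.4% and 43.3% in KD-Nap1l2, 23.3% and 45.3% in NC-7d, and 24.4% and 46.4% in KD-Nap1l2-7d, and replicates 1 and 2 of NC, NC-7d and KD-Nap1l2-7d differed more than the group means. *Celf2* NM_001110232.1 held 0.894% and 1.22% in NC, 11.4% and 20.7% in KD-Nap1l2, 9.61% and 10.4% in NC-7d, and 0% and 4.57% in KD-Nap1l2-7d. Another model of the gene, NM_001110228.1, held 13.4% and 20.8% in NC, 0% and 4.27% in KD-Nap1l2, 8.78% and 4.69% in NC-7d, and 12.1% and 4.1% in KD-Nap1l2-7d. After induction the libraries of NC-7d and KD-Nap1l2-7d did not stand in that order for NM_001110232.1 and overlapped for NM_001110228.1. *Hnrnph3* XM_006513839.3 held 52.7% and 48.7% in NC, 57.5% and 42.3% in KD-Nap1l2, 32.6% and 36.8% in NC-7d, and 53.1% and 42.8% in KD-Nap1l2-7d. *Celf5* was counted at about 100 reads a library, and its model NM_176954.3 held 0% and 55.9% in NC, 70% and 32.8% in KD-Nap1l2, 0% and 1.46% in NC-7d, and 0% and 0% in KD-Nap1l2-7d. Its models NM_001311127.1 and XM_011243472.2 had mean shares of 13.6% and 0% in KD-Nap1l2 and 58.3% and 35.3% in KD-Nap1l2-7d. The lowest adjusted p among these transcripts was 0.93 (edgeR).

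The genes around the members in the splicing pathway were counted by the same test. Of 57 core spliceosome genes, all tested, 3 rose and 5 fell over both inductions, with a median of -0.03. That was 14% of them, below the 25.5% of all genes. Those that rose were *Dhx8*, *Dhx38* and *Sf3b3*, and *Sf3b3*, a subunit of the complex at the branch site, had the highest value (0.58 ± 0.12 on the log2 scale). *Lsm3*, a ring protein of the U6 particle, had the lowest (-0.63 ± 0.12), and *Lsm6*, *Plrg1*, *Snrpa1* and *Snrpd3* fell too. Of 50 other splicing regulators tested, 2 rose and 5 fell (14%, also below that background, with a median of -0.10), with *Rbm38*, a p53 target, at 1.14 ± 0.19 and *Rbmx*, an hnRNP-like gene on the X chromosome, at -0.83 ± 0.17. None of the 11 kinases, phosphatases and carriers of SR proteins tested passed (median -0.01), and *Srpk1*, the main cytoplasmic SR kinase, had the highest value (0.37 ± 0.12, adjusted p = 0.0573). Of 13 nonsense-mediated decay genes, which remove the unproductive transcripts that many SR genes make, *Smg8* rose (0.50 ± 0.09) and *Smg6* fell (-0.44 ± 0.09). That was 15.4% of them, also below the 25.5% of all genes. Their median was 0.13, and 10 of the 13 lay above 0. No gene of these 4 lists was called in KD-Nap1l2 against NC or in KD-Nap1l2-7d against NC-7d.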

How the data were processed

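RNA-seq of the 8 libraries was used. The submitters' processing notes name BWA, Bowtie2, RSEM and the build GRCm38.p6, without versions. The authors deposited RSEM estimated counts and FPKM values (counts scaled by gene length and library total) for 18605 genes and 57714 transcripts. The tables of the authors' own comparisons (fold changes and p-values) were not used.

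The deposited estimated counts were rounded to whole numbers, filtered by filterByExpr (13470 genes) and scaled by TMM, and all 8 libraries were fitted with edgeR 4.0.16 (R 4.3.3, glmQLFTest, Benjamini-Hochberg adjusted p under 0.05). Standard errors are |log2 fold change| divided by √F. Transcript shares were tested by diffSpliceDGE over 34049 transcripts. On simulated data the gene test recovered 174 of 200 changed genes for the induction over both lines (97 of 100 changed 4-fold, 77 of 100 changed 2-fold), with 16 false calls among 13291 genes. Alternatives were DESeq2 1.42.0, RLE factors, other filters, fits of fewer libraries, a replicate term, limma 3.58.1 on log2(FPKM + 1) and log2(FPKM + 0.1), and limma diffSplice.

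Members were set by symbol, and members and gene lists were chosen with earlier results of these data known. Genes named with values in every library were those called, the 3 highest and 3 lowest per comparison among members averaging 50 or more normalized counts whose groups did not overlap, and 18 textbook members. Named shares were the 3 largest differences without overlap per comparison, in genes with 50 counts in every library. The *Mbnl1* exon and the 6 exons were added after seeing the data. Replicates differed beyond counting noise (chi-square per degree of freedom 14.5 to 72.8), so none was merged. With 2 libraries against 2 an exact permutation test cannot go below p = 0.333. Gene coordinates are those of RefSeq (GRCm38.p6).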

Additional observations from a re-analysis of the deposited data

How the results depend on the processing

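For the induction over both lines, 7 members were called. The count was 11 without KD-Nap1l2 replicate 2 and 3 to 5 without any other library. *Celf2*, *Hnrnph3* and *Hnrnpll* were called under all 16 settings and *Mbnl1* under 15, all but the fit without NC replicate 1, while *Hnrnpul1*, *Hnrnpr* and *Srsf1* were called under 9, 7 and 5. In NC alone, 3 members were called under every alternative except without NC replicate 1, NC replicate 2 or NC-7d replicate 1, where 1 was (range 1 to 3). In KD-Nap1l2 alone, 4 members were called, against 8 by DESeq2, 7 with at least 10 counts in every library, 2 with no filter, 1 with only the libraries compared, and 1 to 4 without 1 library, the lowest count standing for each KD-Nap1l2-7d or NC library left out. The counts of 0 members in the other 3 gene-level comparisons held under every alternative. Over all genes, DESeq2 called 453 and 78 genes in the knockdown comparisons without and with induction, where edgeR called 11 and 0, and 100 against 0 in the difference between inductions. In KD-Nap1l2 against NC edgeR called 160 genes with no filter and 0 to 562 without 1 library. Leaving out 1 library also moved the genes called over both inductions (3436) to between 1684 and 3918, lowest without NC replicate 1. Counts of transcript shares stayed at 0 except without NC replicate 1, where *Tra2b* XM_006521879.3 was called in KD-Nap1l2 against NC (range 0 to 1), and it and *Hnrnph2* NM_001313717.1 over both inductions (range 0 to 2). No called value changed sign. The differences between replicates correlated by -0.0612 to 0.104 between groups over all genes, and by -0.316 to 0.131 over the members. Such correlations cannot show by themselves whether replicate numbers pair the libraries. With the replicate block, 2 members were called in KD-Nap1l2, and the other counts of members stayed within 1.5 times. The cause of these changes was not tested. Members below 1 FPKM had few counts, and small changes in them were not detectable at this depth.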
